A study of Mus musculus with 388 samples.

Results

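Hmgcs1, Idi1, Sqle, Insig1, Srebf1, Srebf2, Abca1 and Scd1 were followed through single bone marrow stromal cells of mice in which descendants of Kit-expressing fetal cells carry a red mark. These 8 genes of cholesterol and fatty acid handling were taken by symbol from a table of 25000 genes, and all 8 were present. The mice were of the C57BL/6 strain with the genotype KitMerCreMer; R26tdTomato, an inducible Cre expressed from the Kit locus with a Cre-dependent tdTomato reporter. Tamoxifen was given on the embryonic days E12.5/14.5, and marrow was taken at 2 months. All cells, marked or not, came from such mice and had been sorted as negative for the blood marker CD45, the erythroid marker Ter119 and the endothelial marker CD31, and positive for PDGFRα. Tomato+ cells are those with the mark and Tomato- cells those without; as Cre acts only where it is expressed while tamoxifen is present, an unmarked cell need not lack a Kit-expressing ancestor. The label of cholesterol synthesis and uptake covered the members only in part: Abca1 exports cholesterol and Scd1 desaturates fatty acids, and no uptake receptor was among the 8.

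A cell makes cholesterol from acetyl-CoA through a chain of enzymes in the cytosol and the endoplasmic reticulum, or takes it up as lipoprotein. When membrane sterol falls, the SREBP precursors leave the endoplasmic reticulum with SCAP, are cut by 2 proteases in the Golgi and switch on genes of synthesis and uptake; when sterol is plentiful, INSIG proteins hold them back and oxysterols activate LXR, which turns on export. SREBP-2 mainly drives the cholesterol genes and SREBP-1 mainly the fatty acid genes. Marrow stroma marked by the leptin receptor supports blood stem cells and can form fat, so its lipid genes are of interest in this tissue.

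The members' promoters hold known elements of this circuit, and 4 windows are shown because they carry the sterol-type and LXR-type motifs. RefSeq promoters (GRCm38.p6, 250 bases before to 50 after the gene's start, printed in the direction of transcription) were matched for 6 of the 8 members; those of Sqle and Scd1 were not used here. Capitals mark CACNCCAC (the core of a sterol regulatory element), CACGTG (an E-box, to which SREBPs can also bind) and an LXR-type direct repeat (GGTTA and GGTCA with 5 bases of any kind between them), each searched on both strands, and CCAAT, the NF-Y box, is left in lower case. The windows are Hmgcs1 (chr13:119690101-119690400, plus strand), Insig1 (chr5:28071162-28071461, plus strand), Abca1 (chr4:53159846-53160145, minus strand) and the inner of 3 listed for Srebf1 (chr11:60210422-60210721, minus strand).
Hmgcs1: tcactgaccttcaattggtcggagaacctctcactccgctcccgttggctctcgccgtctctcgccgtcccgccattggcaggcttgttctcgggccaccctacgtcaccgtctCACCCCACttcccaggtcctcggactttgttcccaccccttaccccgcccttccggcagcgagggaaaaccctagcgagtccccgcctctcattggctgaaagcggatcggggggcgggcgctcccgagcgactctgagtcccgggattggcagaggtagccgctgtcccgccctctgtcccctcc
Insig1: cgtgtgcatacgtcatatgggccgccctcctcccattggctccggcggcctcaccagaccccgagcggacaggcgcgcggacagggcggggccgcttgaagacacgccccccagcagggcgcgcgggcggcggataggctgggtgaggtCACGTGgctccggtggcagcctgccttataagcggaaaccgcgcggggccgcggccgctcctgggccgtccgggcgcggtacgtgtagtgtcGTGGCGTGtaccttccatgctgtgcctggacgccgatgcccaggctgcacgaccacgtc
Abca1: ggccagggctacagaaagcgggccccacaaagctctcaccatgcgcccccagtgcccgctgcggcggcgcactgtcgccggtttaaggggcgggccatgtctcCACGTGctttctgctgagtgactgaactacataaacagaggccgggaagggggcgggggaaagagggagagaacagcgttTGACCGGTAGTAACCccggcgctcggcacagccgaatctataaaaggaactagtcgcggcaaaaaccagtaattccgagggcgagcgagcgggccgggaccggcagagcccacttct
Srebf1: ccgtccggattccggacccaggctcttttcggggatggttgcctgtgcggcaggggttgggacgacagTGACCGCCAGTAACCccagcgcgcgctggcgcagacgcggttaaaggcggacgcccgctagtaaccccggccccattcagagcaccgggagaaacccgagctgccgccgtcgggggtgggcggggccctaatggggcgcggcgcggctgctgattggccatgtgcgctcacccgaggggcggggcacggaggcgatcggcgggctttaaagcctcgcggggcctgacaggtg
The Hmgcs1 window held the sterol-type motif from base -136 and 4 CCAAT boxes on the reverse strand. The Insig1 window held the sterol-type motif on the reverse strand from -9 and an E-box from -101. The Abca1 and Srebf1 windows each held the LXR-type motif on the reverse strand, from -67 and -182. The Abca1 window also held an E-box, from -147. Of 32851 promoters of this length, 6.24% held CACNCCAC, 37.4% CCAAT, 7.15% CACGTG and 0.0487%, 16 promoters, the LXR-type pattern, which was written after the known ABCA1 element. Idi1 had 2 CCAAT boxes and Srebf2 had 1, with none of the other motifs. A match describes letters in a window and does not show binding.

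The 388 deposited cells fall into 8 title sets in 2 title orders, and the labels do not say what the orders stand for. Order 1 holds the Tomato+ sets P1, P2 and P3 (94, 5 and 38 cells after removal of 2 shallow ones) and the Tomato- set N2 (60 cells), and order 2 the Tomato+ sets P1 and P2 (24 each) and the Tomato- sets N1 and N2 (71 and 70). The 386 kept cells had a median of 679644 counts. No animal is named, so each group is 1 sample, no test was made, and intervals (95%, exact Poisson for sums, exact Clopper-Pearson for shares) cover counting error only, in reads without molecular identifiers. Lepr, the leptin receptor of perivascular marrow stroma, had at least 5 counts in every kept cell; it lay between 3170 and 4794 CPM (counts of the gene in the summed cells, scaled to their total) in 7 sets but at 84.9 CPM in the 5 cells of P2 of order 1. Of 12 blood markers, at least 3 reached 5 counts in 52.7% of Tomato- and 5.95% of Tomato+ cells, in 1 cell of order 1 and 61.4% of those of order 2, and reached 50 counts in 19 cells, of which 18 were Tomato-. Ptprc, which encodes CD45, had 5 counts in 12 cells, all Tomato- of order 2. The part of such cells in the results was not tested unless a value without them is given.

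Levels between genes can be set side by side only per length, here as CPM per kb of exon averaged over the 4 sums of 2 groups in 2 orders. By this level the members ran from Scd1 at 15.7 ± 8.1 (SD over the 4 sums) and Hmgcs1 at 15.7 ± 5.2 through Insig1 at 12.8 ± 5.9 and Idi1 at 10.2 ± 3.5 to Abca1 at 5.97 ± 2.4, Srebf2 at 5.49 ± 4.0, Srebf1 at 5.16 ± 4.1 and Sqle at 3.39 ± 3.2. The ranges of neighbours in this order overlapped in every case, and only the gap between Idi1 and Abca1, 4.22, was larger than the SD of either neighbour. Insig2, the INSIG form not under SREBP control in most cells, lay higher, at 74.4 CPM per kb. Around the members, Apoe, the lipoprotein component that carries cholesterol away from cells, reached 2426 CPM per kb and Npc2, which lifts cholesterol out of lysosomes, 72.9 to 136.9 over the 4 sums. The highest of the synthesis list was Ebp, a sterol isomerase, at 29.9, of the fatty acid list Acly, ATP citrate lyase, at 19.8, and of the adipogenic list Adipoq, the adiponectin gene, at 2354. The median was 4.86 CPM per kb over 20 synthesis enzymes, 5.49 over 7 genes of SREBP processing, 6.09 over 11 of uptake and lysosomal release, 9.06 over 9 of efflux, storage and LXR, and 5.36 over 10 of fatty acid synthesis.

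**Figure D1:**
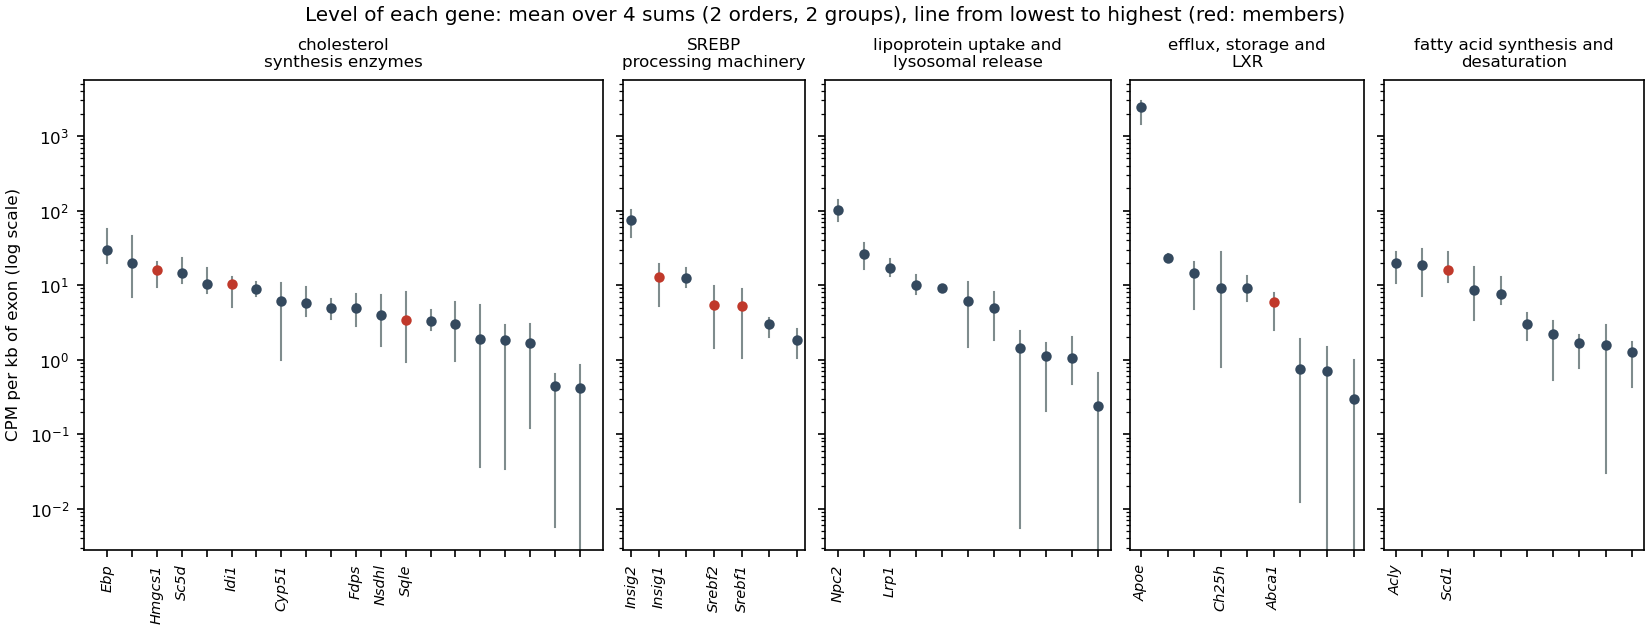
CPM per kb of exon (log axis) of each gene in 5 lists, members in red and genes named in the text labelled; points are means over the 4 sums of 2 orders and 2 groups, and lines run from the lowest to the highest sum, off the axis where the lowest is 0. Apoe at 2426 and Insig2 at 74.4 stand above the members, which lie between 3.39 and 15.7.

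The enzymes among the members belong to the early, middle and late parts of the chain. Hmgcs1 (chromosome 13, 119690379 to 119708260 of GRCm38) makes HMG-CoA at the start of the chain. Its level in order 1 was 61.9 CPM in the Tomato- set (59.2 to 64.6) and 46.6, 0.92 and 35.6 CPM in the Tomato+ sets P1, P2 and P3. In order 2 it was 85.8 and 91.5 CPM in the Tomato- sets N1 and N2 and 100.02 and 90.4 CPM in the Tomato+ sets P1 and P2. Every set of order 2 thus lay above every set of order 1, while Tomato+ and Tomato- sets overlapped. Idi1 (chromosome 13, 8885501 to 8892451) isomerises isopentenyl diphosphate, the isoprenoid building block. It stood at 39.7 CPM in the Tomato- set of order 1 against 21.96, 0 and 6.2 CPM in P1, P2 and P3, the 0 allowing up to 1.38 CPM by a limit of 3 counts and up to 1.69 CPM by the Poisson interval, and at 47.96, 33.9, 69.95 and 26.5 CPM in N1, N2, P1 and P2 of order 2. These Idi1 sums rested on few cells: 1 cell gave 84.7% of the counts of the Tomato- set of order 1 and another 99.2% of those of P2 of order 2.

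Sqle (chromosome 15, 59315077 to 59331192), squalene epoxidase, catalyses the first oxygen-requiring step toward sterols. It was at 5.23 CPM in the Tomato- set of order 1 and at 11.1, 0 and 0.16 CPM in P1, P2 and P3 there. In order 2 it was at 14.7 and 18.8 CPM in the Tomato- sets and at 48.4 and 41.9 CPM in the Tomato+ sets, so that the marked and unmarked sets did not overlap in that order. Only 16.7% of the 48 Tomato+ cells and 11.3% of the Tomato- cells of order 2 had 5 or more Sqle counts, and 3 cells held 55.8% of the Tomato+ counts.

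Of the regulators, Insig1 (chromosome 5, 28071363 to 28078662) encodes an INSIG protein that is itself switched on by SREBP. It lay at 36.7 CPM in the Tomato- set of order 1, at 13.8, 154.2 and 13.5 CPM in P1, P2 and P3, and at 57.8, 36.1, 78.7 and 45.8 CPM in N1, N2, P1 and P2 of order 2. The high value of P2 came from 336 counts in 3 of its 5 cells. Among the 8 members Insig1 had 5 or more counts in the most cells, 36.3% of 386. Srebf1 (chromosome 11, 60199089 to 60222581), the gene of SREBP-1, was at 5.84 CPM in the Tomato- set of order 1 and at 11.1, 0.46 and 21.2 CPM in P1, P2 and P3, against 59.7, 41.5, 46.5 and 48.7 CPM in N1, N2, P1 and P2 of order 2. Srebf2 (chromosome 15, 82147181 to 82205379), the gene of SREBP-2, behaved alike, with 10.4, 22.1, 0.46 and 12.3 CPM in N2, P1, P2 and P3 of order 1 and 56.5, 78.6, 61.4 and 57.2 CPM in N1, N2, P1 and P2 of order 2. In both genes every order 2 set lay above every order 1 set. In order 1, 1 cell gave 97.9% of the Srebf1 counts of N2 and another 98.7% of those of P3. For Srebf2, the top cell gave 51.9% of the counts of N2 and 99.04% of those of P3. That P3 cell had 9 of 10 endothelial markers at 50 counts or more and Lepr at 23.8 CPM. In P1 the top cell gave 27.6% of the Srebf1 and 21.6% of the Srebf2 counts.

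Abca1 (chromosome 4, 53030787 to 53159895) pumps cholesterol out to apolipoprotein A-I. Its summed level was 80.6 CPM in the Tomato- set of order 1 and 29.5 and 22.2 CPM in those of order 2, but cells with 5 or more counts made up 15% of the first and 21.1% and 20% of the others. The Tomato+ sets had 60.1, 138.2 and 74.6 CPM in order 1 and 43.6 and 101.5 CPM in order 2. In the Tomato- set of order 1, 3 cells held 86.3% of the counts and 1 of them 1477 counts, 55.7% of the set's sum; its Lepr level was 161.2 CPM. The cells with the most Abca1 counts in P3 of order 1 (677 counts) and P2 of order 2 (579 counts) had 9 and 10 of 10 endothelial markers at 50 counts or more and Lepr at 34.9 and 40.9 CPM. Scd1 (chromosome 19, 44394455 to 44407879), stearoyl-CoA desaturase, was at 55.7 CPM in the Tomato- set of order 1, at 62.5, 0.92 and 26.5 CPM in P1, P2 and P3, at 62.1 and 63.4 CPM in the Tomato- sets of order 2 and at 79.2 and 178.5 CPM in the Tomato+ sets. The cell with the most Scd1 in the Tomato- set of order 1 held 933 counts, 50.96% of that sum, with Lepr at 234 CPM.

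**Figure D2:**
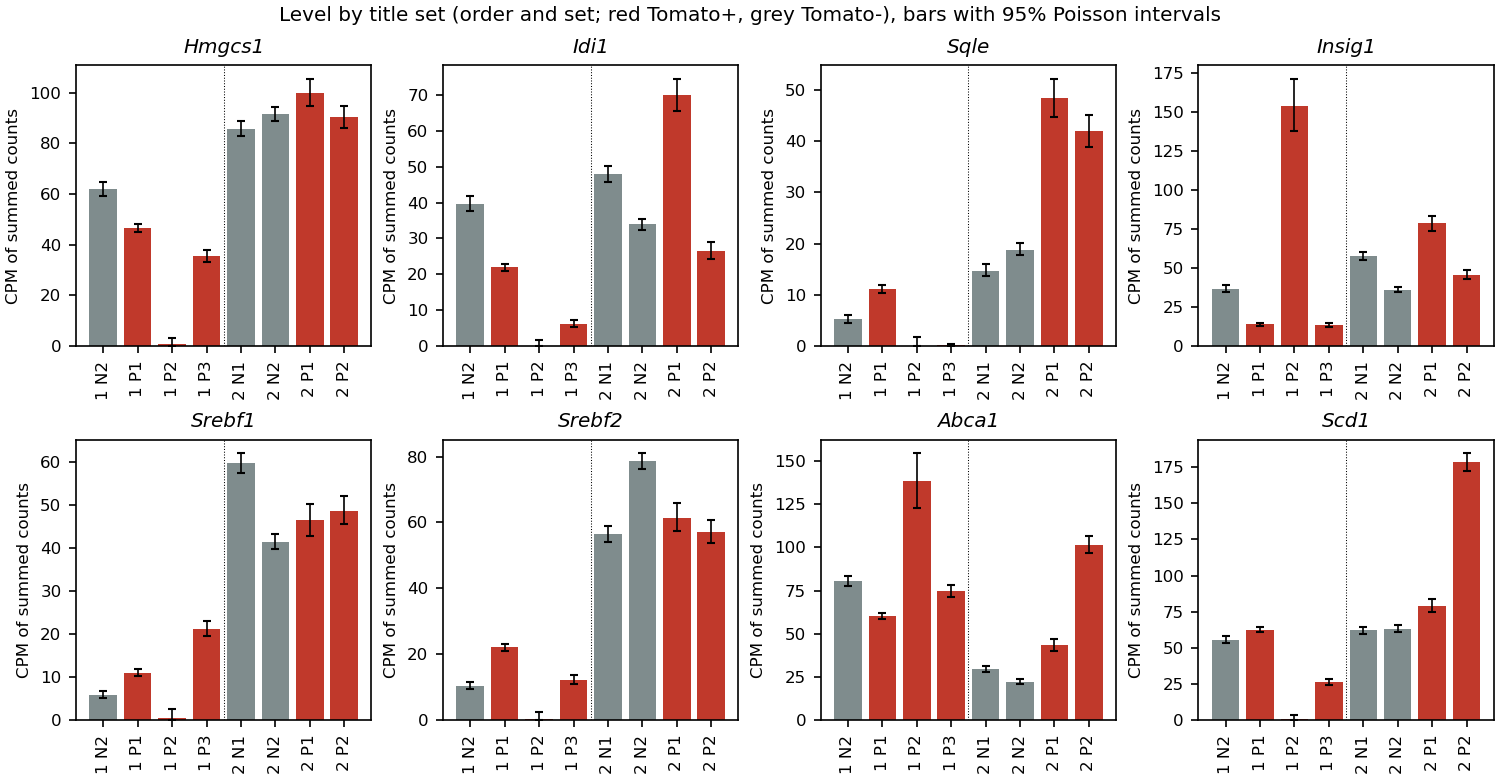
CPM of the summed counts of each member (y axis) in the 8 title sets (x axis: order, then set), red for Tomato+ and grey for Tomato-, with 95% Poisson intervals. The 4 order 2 sets stand above the order 1 sets for Hmgcs1, Sqle, Srebf1 and Srebf2.

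The first comparison asked whether marked and unmarked stroma differ in these genes. As a log2 ratio of (CPM + 1), Tomato+ over Tomato-, which understates differences of low genes, Sqle was higher in both orders, at 0.59 ± 0.10 (counting SE) in order 1 and 1.34 ± 0.05 in order 2. It was the only member past the size rule, 1.5-fold in the same direction in both orders, and only just (1.5-fold is 0.58 on this scale); over genes that passed a filter of 20 CPM and a count in 20% of cells of the higher group, 3.41% were past it upward and 4.72% downward. Sqle itself failed that filter with a count in 18.4% of Tomato+ cells, and the other 7 members passed it. Without P1 of order 1, Sqle's mean ratio was -0.55, against 0.97 with all sets. The other 7 members had opposite signs in the 2 orders, as did 45.7% of the genes that passed the filter.

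Hmgcs1, Idi1 and Insig1 had ratios of -0.51, -1.10 and -1.11 in order 1 and of 0.09, 0.17 and 0.38 in order 2. Srebf1 and Srebf2 had ratios of 1.05 and 0.84 in order 1 and of -0.05 and -0.22 in order 2. For Abca1 the ratios were -0.31 and 1.55, and for Scd1 -0.07 and 1.10, so that both were at least 1.5-fold higher in marked cells in order 2 alone; whether the orders differ was not tested. The median ratio of the 8 members was -0.19 in order 1 and 0.27 in order 2, beside 0.02 and -0.01 over 6649 genes. The median over the 8 members of the mean of both ratios was 0.40, beside 0.003 over those genes. It does not stand for a shift in the same direction in both orders. This median of means was -0.071 without P1 of order 1 and -0.65 with counts summed over both orders. Leaving out cells with 3 markers of another cell type at 5 counts (41.97% of cells, and 72.5% of those of order 2) turned the mean of both ratios from -0.21 to 0.39 for Hmgcs1, from -0.47 to 0.40 for Idi1 and from 0.62 to -0.11 for Abca1, with Sqle at 0.64. With the limit at 50 counts, the mean ratio of Abca1 was 0.21. With the top cell of each gene left out in each group and order, Abca1 and Scd1 were past the size rule upward, with ratios of 0.61 and 1.34 and of 0.81 and 0.89, and Sqle was not, at 0.57 and 1.27. Summed over both orders, Idi1, Insig1, Srebf1 and Srebf2 were past 1.5-fold downward in Tomato+ cells (ratios of -0.72, -0.72, -0.85 and -0.91); Tomato+ cells make up 69.5% of the cells of order 1 and 25.4% of those of order 2, and within orders none of these 4 was lower in both.

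**Figure D3:**
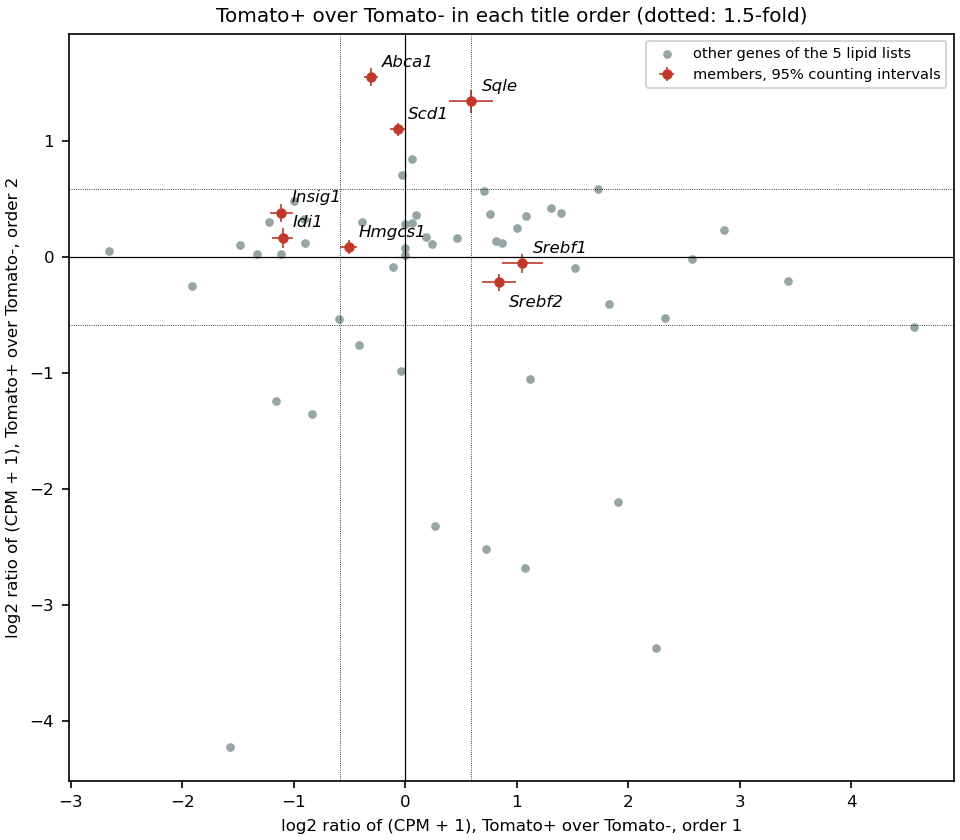
Log2 ratio of (CPM + 1), Tomato+ over Tomato-, in order 1 (x axis) and order 2 (y axis) for the members (red, bars 95% counting intervals) and the other genes of the 5 lipid lists (grey); dotted lines mark 1.5-fold. Sqle alone among the members lies past 1.5-fold upward in both, and 7 members lie in the quadrants of opposite sign.

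Around the members, pathway genes past the size rule are given by list, beside 3.41% upward and 4.72% downward of the genes that passed the filter. Among the 20 synthesis enzymes Sqle was past it upward and Fdps and Nsdhl downward. Fdps, farnesyl diphosphate synthase, was at 13.1 against 24.1 CPM in order 1 and at 12.1 against 32.4 CPM in order 2 (Tomato+ first; ratios -0.84 and -1.35). The order 2 gap of Fdps lay in P2, at 0.96 CPM, as P1 was at 26.8 against 27.1 and 36.6 CPM in the Tomato- sets; without P2 the ratio was -0.26, and without the top cell of each group the ratio of order 1 was 0.08, and either ended the call. Nsdhl, which takes part in removing the methyl groups of lanosterol, had ratios of -1.16 and -1.24 but failed the filter. It was no longer past the rule without P2 or without N2 of order 2 (ratios of -0.18 and -0.58 there), and without its top cells the ratio of order 1 was 2.55. None of the 7 SREBP processing genes, 11 uptake genes or 10 fatty acid genes passed. Of 9 efflux genes Ch25h, cholesterol 25-hydroxylase, passed downward at -1.57 and -4.22 and failed the filter; 15 cells had 5 or more Ch25h counts and 1 cell held 64.8% of all its counts. Without N2 of order 2 its ratio in that order was -1.32. Among 10 adipogenic genes Zfp423, a preadipocyte factor, passed upward at 1.22 and 1.59 and in each run without 1 title set or without its top cells, and none of 10 immediate early genes did.

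Several members also differed between the title orders. Taking the sets of 20 or more cells, Hmgcs1, Sqle, Srebf1 and Srebf2 lay higher in all 4 sets of order 2 than in all 3 of order 1, as did 12% of the 6897 genes that passed the same filter between orders; 14% were separated the other way and no member was. The ratio of order 2 to order 1, averaged over both groups, was 5.05-fold for Srebf1, 4.23-fold for Srebf2, 3.75-fold for Sqle and 1.76-fold for Hmgcs1. Among other enzymes of the chain, Cyp51, lanosterol demethylase, was also higher in order 2, at 4.24-fold. Ebp averaged 0.65-fold, but its groups went opposite ways, with log2 differences of 0.17 in Tomato+ and -1.41 in Tomato- cells. Over the 20 synthesis enzymes the median log2 ratio of order 2 to order 1 was -0.06, beside -0.08 over the 6897 genes. Insig2 was lower in order 2, with a log2 difference of -0.90 in Tomato+ and -1.18 in Tomato- cells. Per cell, a median of 1 synthesis enzyme of 20 had 5 or more counts in order 1 and 3 in order 2. After thinning to 100000 counts, a mean of 2.43 and 4.32 enzymes had a count. The median number of all genes with a count was 3181.5 to 4523.5 over the sets of order 1 and 4219 to 4997 over those of order 2. The summed level of the 20 enzymes was 469 CPM in order 1 and 547 CPM in order 2. By group it was 398 and 539 CPM in Tomato+ cells and 711 and 550 CPM in Tomato- cells. Cells with no enzyme at 5 or more counts made up 24.8% and 6.25% of Tomato+ and 43.3% and 4.96% of Tomato- cells. The highest sum, that of Tomato- cells of order 1, thus came from the group with the most such cells. The headers name RSEM for all columns of order 1 and for 0 of order 2, so a different way of counting cannot be told apart from the order. The blood-marker cells named above lay almost wholly in order 2.

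In single cells the members were at or near 0 in many cells and high in a minority, with Insig1 the most graded. Cells between 5 and 50 CPM made up 21.8% for Insig1, against 17.6% at 50 CPM or more; for the other 7 members they made up 2.59% to 11.4%, always fewer than the cells at 50 CPM or more. Median levels over all cells were 1.67 CPM for Insig1, 1.34 for Hmgcs1, 1.24 for Scd1 and 0 for the other 5. Cells with 5 or more counts made up 31.9% for Hmgcs1, 27.5% for Scd1, 24.1% for Srebf2, 23.1% for Abca1, 19.9% for Srebf1, 13.2% for Idi1 and 8.5% for Sqle. Where present, counts were large, with a median of 98 for Srebf2, 95 for Abca1 and 29 for Insig1 in such cells. In 11 of 56 pairs of a member and a set of 20 or more cells, the top cell alone held over 50% of the counts. No member reached 5 counts in 91 cells, and at most 6 of the 8 did in a cell.

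**Figure D4:**
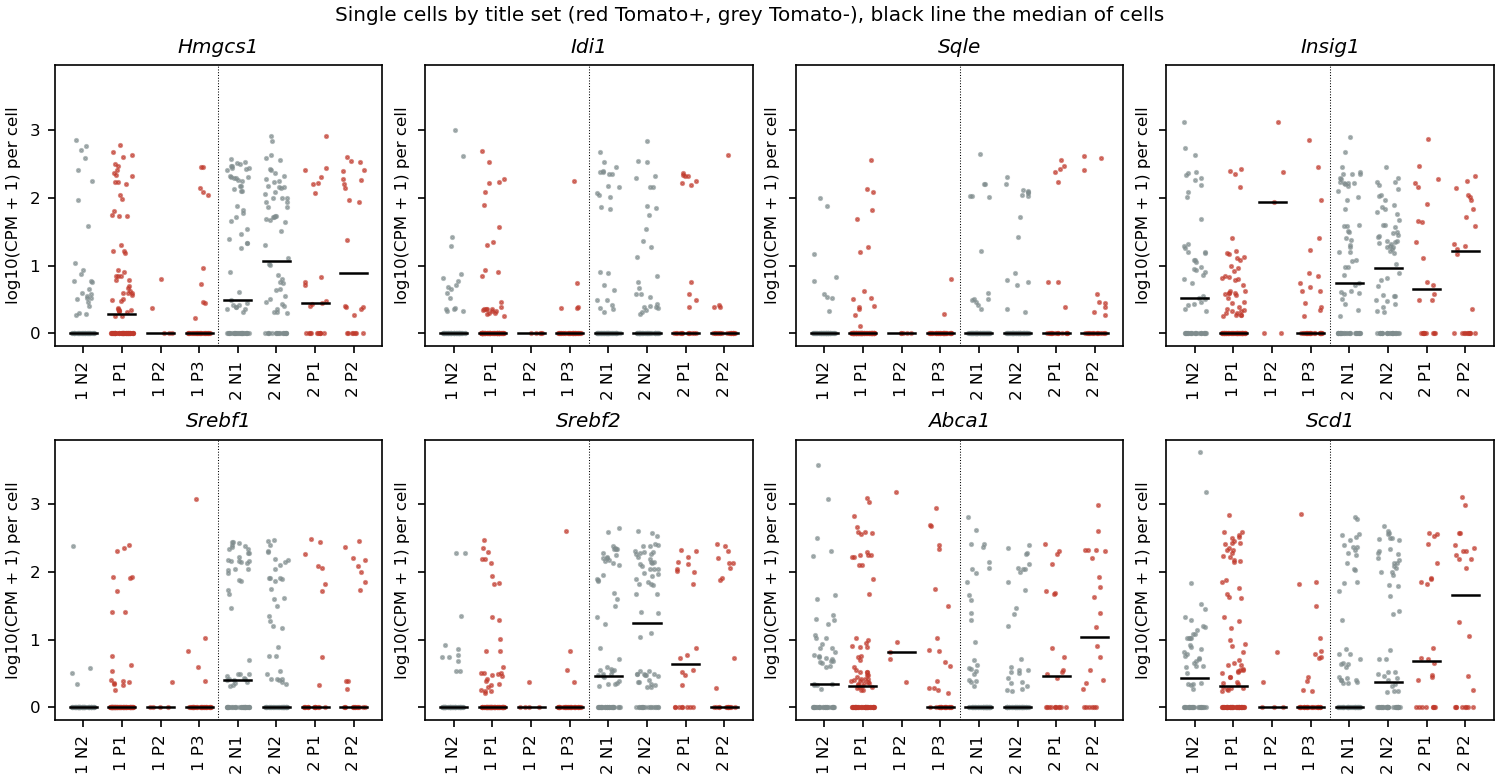
Log10 of (CPM + 1) of each member (y axis) in every kept cell, by title set (x axis), red for Tomato+ and grey for Tomato-, with the median as a black line. The medians lie low in most sets and single cells far above them, and Insig1 has the most cells in between (21.8% at 5 to 50 CPM).

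The members did not go together cell by cell over the whole sample. Spearman correlations of log2(CPM + 1), taken within the 7 sets of 20 or more cells (381 cells) and averaged, had a median of 0.044 over the 28 pairs of members, and the highest was 0.136 for Idi1 with Insig1. The median over all pairs of 3228 well detected genes was 0.031, and over the 45 pairs of immediate early genes 0.316, with 0.728 for Fos and Egr1. The cells of order 1 sets are spread over 12 library codes, which these correlations do not take into account, and the values are descriptions of sparse counts. Among the well detected genes the ones most like each member were Wdr26 for Hmgcs1 (0.236), Myl12a for Idi1 (0.229), Sc5d for Sqle (0.203), Atg3 for Insig1 (0.206), Sptlc2 for Srebf1 (0.230), Serpina3c for Srebf2 (0.225), Pnpla8 for Abca1 (0.254), and Ak6 and Taf9 for Scd1 (0.223 each). Ak6 and Taf9 also had the same lowest and highest values over the sets (-0.019 and 0.532), so they may be 1 measurement and not 2. Sc5d, lathosterol oxidase, and Ebp, which ranked 3 for Idi1 (0.210), are synthesis enzymes.

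Cells in which many other synthesis enzymes were detected formed a minority, in which Idi1 was detected more often than in matched cells. The gaps of several other members were no larger than those of many genes. Without the 3 members, the synthesis list has 17 enzymes, and 19 cells had 5 or more counts for at least 7 of them (up to 11); 6 cells lay at 7 and 12 just below at 6. These cells are one end of a range and not a cell type, and the number 7 was chosen after values were seen. They came from 5 sets, with 7 Tomato+ cells and 16 cells of order 2, and 3 of them had at least 3 blood markers at 50 counts. Each was set against the 10 cells of its order nearest in the number of genes with 5 counts (97 cells in all), so that the mean number of such genes was 4070 in the 19 and 3927 in the matched cells.

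Among the members, none of which took part in the choice, Idi1 was detected with 5 or more counts in 12 of the 19 cells (63.2%) against 22.6% of matched cells. The gap of 40.5 percentage points ranked 7 among 6858 genes detected at this level in 10% to 70% of cells, the 17 enzymes left out; the median gene had a gap of 1.05 points and the 99th percentile was 27.4. The rank of Idi1 was 2 with at least 6 enzymes (31 cells), 5 without the cells with blood markers and 22 within order 2, while with at least 8 enzymes (13 cells) its gap was 28.5 points and 2.42% of genes had one as large. Sqle was detected in 36.8% against 11.6%, Hmgcs1 in 68.4% against 47.9%, Srebf2 in 63.2% against 45.3% and Insig1 in 63.2% against 50%. With 5 or more counts in 8.5% of all cells, Sqle lay outside the ranked genes, so its gap has no share of genes beside it. Gaps as large as those of Hmgcs1, Srebf2 and Insig1 were met in 4.2%, 7.06% and 13.998% of genes. Within order 2, which holds 16 of the 19 cells, the gaps of Hmgcs1 and Insig1 were 11.3 and 9.38 points, and 21.5% and 24.99% of genes had one as large. Srebf1, at 47.4% against 42.1%, and Scd1, at 47.4% against 34.2%, had smaller gaps than the enzymes among the members. Gaps as large as these were met in 35.6% and 14.4% of genes. With at least 8 enzymes the gap of Scd1 was -0.77 points. There Srebf1 was detected in 46.2% of matched cells and in 6 of the 13 cells, with no gap. The gap of Scd1 was 18.7 points with at least 6 enzymes. Without the cells with blood markers it was 21.9 points, above that of Hmgcs1 at 20 points. Abca1 was detected less often, in 3 of 19 cells (15.8%) against 31.1%, and 93.1% of genes had a gap as large or larger. Its mean level was higher in the 19 cells, at 47.97 against 30.5 CPM, while its median was 0 against 0.88 CPM. The Abca1 gap was -21.25 points within order 2 and 16.7 points within order 1, which holds 3 of the 19 cells. The receptor gene Lrp1, whose product binds lipoprotein remnants, was detected in 84.2% of both the 19 and the matched cells. The apolipoprotein gene Apoe had 5 or more counts in all 386 kept cells, so its share could not differ. Insig2 was detected in 68.4% of the 19 cells against 77.9% of matched cells, with medians of 56.8 and 165.7 CPM. With 5 or more counts in 71.2% and 78.2% of all cells, Insig2 and Lrp1 lay outside the ranked genes. Their values thus have no share of genes beside them.

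**Figure D5:**
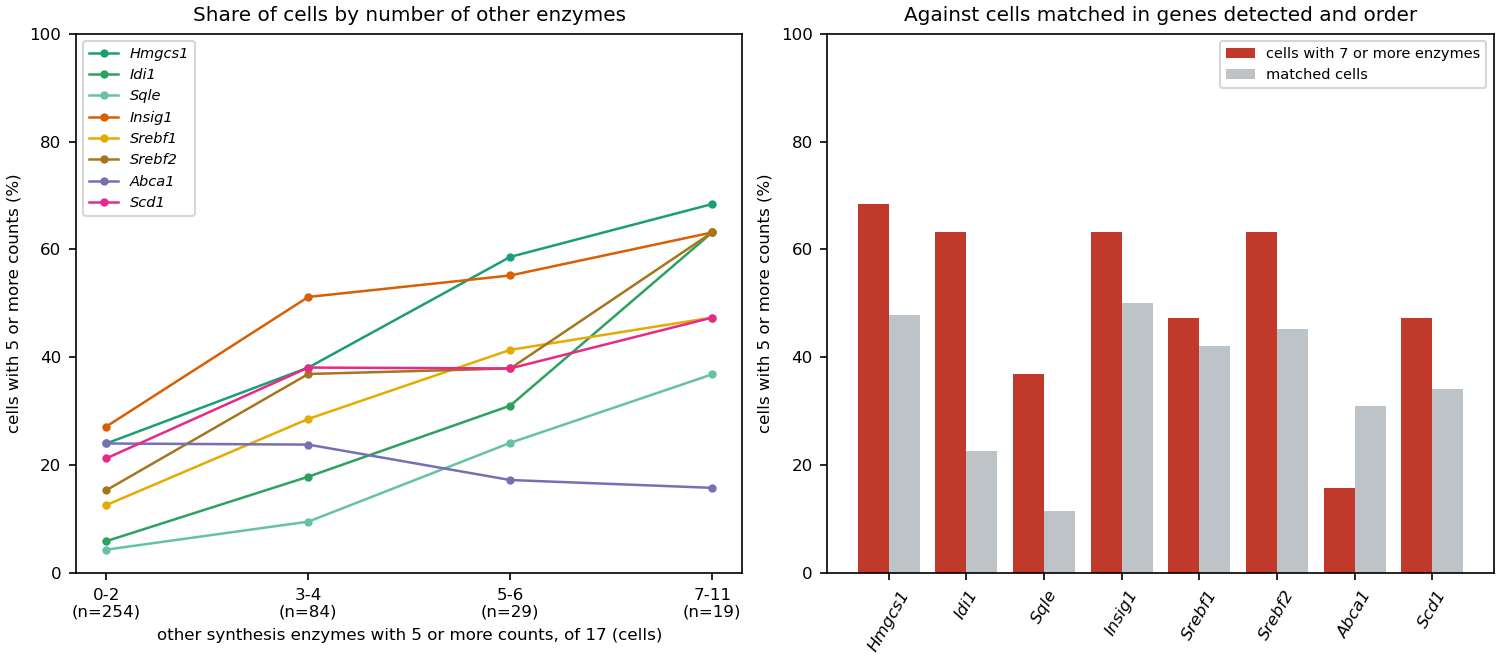
Left: share of cells with 5 or more counts (y axis, %) of each member by the number of the 17 other synthesis enzymes with 5 or more counts (x axis, number of cells in brackets). Right: the same share in the 19 cells with 7 or more enzymes (red) and in matched cells (grey). Idi1 reaches 63.2% at the right end and Abca1 15.8%.

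Over the whole range, Idi1 was detected in 5.9% of the 254 cells with up to 2 of the 17 enzymes, 17.9% of 84 cells with 3 or 4, 31.03% of 29 cells with 5 or 6 and 63.2% of the last 19. Sqle went from 4.3% through 9.5% and 24.1% to 36.8%. Abca1 was at 24.02%, 23.8%, 17.2% and 15.8%. The median number of genes with 5 counts also differed along this range, from 2527 through 3409 and 3841 to 3920, so the lower steps are not matched in depth, and the last step holds fewer than 20 cells.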

How the data were processed

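Each sample is 1 cell, and the deposited values are expected counts, per the file headers, which name RSEM for the columns of order 1 and no tool for those of order 2; 3.97% and 5.77% of the values above 0 were not whole. The submitters' processing notes list StringTie 1.3.3b, HTSeq 0.6.0 and HISAT, and GRCm38 as the build, with the role of each not given in the sources used here. As the labels' protocols state, RNA was reverse transcribed and amplified as whole transcripts; molecular identifiers are not mentioned, so a few molecules can give many counts. No strand setting is stated, so genes on opposite strands that overlap cannot be separated, and Scd1 and Scd2 or the INSIG genes may share reads.

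Columns were tied to a Tomato group and title set by name, never to 1 cell title, and 0 columns were unused. Expected counts were rounded, 386 of 388 cells had 1000 genes and 10000 counts and were kept, and counts were summed by group within each order and scaled to CPM. No doublet caller was run. Some genes of the lists are counted in the list totals but not reported here. The members, lists, markers and rules were chosen with earlier results of these data known. Named genes were all members, list genes past the size rule, the highest per-length level of each lipid and adipogenic list and the genes most like a member; genes named for the cells with many enzymes and for title order were chosen after their values were seen. Ratios carry counting errors only. Exon lengths and coordinates are from GENCODE M21 (GRCm38). Scripts used Python 3.11.15, pandas 2.3.3, SciPy 1.17.1 and edgeR 4.0.16 (TMM factors only), and were tested on simulated data. Alternatives changed the scaling, pseudocount, filters, depth, cells and sets.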

Additional observations from a re-analysis of the deposited data

How the results depend on the processing

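Sqle was 1 member past the size rule upward, none was downward, and the median log2 ratio was 0.40. The upward count was 0 with a pseudocount of 10, median-of-ratios or TMM scaling, mitochondrial genes left out of totals, counts under 1% of a set's highest set to 0, or cells thinned to 100000 counts; it was 2 without each gene's top cell and 3 (Sqle, Abca1 and Scd1) within library codes of order 1 that hold both groups and within set numbers of order 2, whose meaning the labels do not give. Leaving out 1 title set at a time gave 0 to 1 upward, 0 downward and medians of -0.071 (without P1 of order 1) to 0.42; Sqle's own ratio ranged from -0.55 (without P1 of order 1) to 1.13 (without P3 of order 1). Sums over both orders gave 4 members downward, 1 upward (Abca1) and a median of -0.65. The median was 0.14 as the mean of per-cell CPM, 0.21 with a pseudocount of 10, 0.16 after thinning, 0.72 without each gene's top cell and 0.83 within codes and set numbers. It was 0.32 without the 44 cells that had 50 counts in 3 markers of another cell type, an alternative chosen after seeing the data, as were those for the cells with many enzymes and for list genes past the size rule. The cause of these shifts was not tested. The size rule for Sqle held in 15 of 23 settings with separate orders. Within the codes of order 1, Sqle and Scd1 were higher in Tomato+ cells in 5 of 7 and Abca1 in 4 of 7. In order 2 all 3 were higher in both set numbers. Ratios of single codes ran from -3.32 to 5.09 for Sqle, -2.44 to 3.37 for Abca1 and -1.89 to 4.98 for Scd1. These codes hold few cells, and 1 code held 2 Tomato- cells.

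Each group is 1 sample, so counts of Sqle, Srebf1 and Srebf2 that rest on 1 or a few cells cannot be told from differences between groups. No paired analysis was possible because the labels pair no cells by animal or replicate and no result comes from a test; the values within library codes above are descriptions. Leaving out N2 of order 1 was not run, as it is the only Tomato- set of that order.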
